A study of Mus musculus with 21 samples.

Results

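The histone cluster genes of the mouse were followed here in testis RNA of 21 mice at postnatal day 10. A gene belonged to the set when the deposited table called it protein-coding and its symbol began with Hist1h, Hist2h, Hist3h or Hist4h, and 63 of 32643 genes did so. Of these, 54 have a Hist1 symbol and lie on chromosome 13 of the mm10 build. All but 1 of them lie between bases 21715763 and 23934851, and Hist1h2al lies far apart (51202688 to 51203065). Another 6 are in Hist2 on chromosome 3 (96219865 to 96279001), 2 in Hist3 on chromosome 11 (58948920 to 58956830) and 1 in Hist4 on chromosome 6 (136801553 to 136804431). By protein type, 60 were replication-type genes (5 for the linker histone H1, 15 for H2A, 17 for H2B, 10 for H3 and 13 for H4). The other 3 encode testis variants, Hist1h1t (H1t), Hist1h2aa (testis H2A) and Hist1h2ba (testis H2B), and are described apart.

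The animals were wild-type (WT) or knockout for FXRalpha (KO), a nuclear receptor for bile acids, on a background mixed in equal parts from 129sv and C57Bl6. Each genotype was given vehicle, bisphenol A (BPA, a plastics monomer with estrogenic activity) or stigmasterol (a plant sterol), with 4 WT or 3 KO animals per treatment, 1 library per animal. The sources used here state no dose, route or timing of exposure, no litter and no construction of the KO allele. Counted reads per library ran from 35459523 to 61498855, so that 3 reads are worth 0.0488 to 0.0846 CPM (counts-per-million). CPM values of genes use library sizes scaled by TMM factors. Reads on Nr1h4, the gene of FXRalpha, numbered 11 to 40 in WT and 7 to 22 in KO libraries. These ranges overlap, so the total count of that gene does not check the genotype labels. Sertoli cell markers (10 genes summed, 3930 to 7258 CPM) and spermatogonial markers (10 genes, 1360 to 2337 CPM) were abundant in every library.

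As background, replication-type histone genes are transcribed in S phase, when new DNA is packed into nucleosomes. Their mRNAs normally end not in a poly-A tail but in a conserved stem-loop, which is bound by SLBP (the stem-loop binding protein) and cut by a dedicated processing complex. Some of these genes can also use a poly-A signal downstream of the stem-loop. The libraries were made from poly-A selected RNA, so they report these genes only as far as their RNA had a tail or was carried over. Testis variants replace their somatic counterparts in male germ cells, in spermatogonia and spermatocytes for Hist1h2aa and Hist1h2ba and in pachytene spermatocytes for Hist1h1t.

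The stem-loop is shown for the members the results turn on, since it is the feature on which poly-A selection bears. The sites below are 30 bases of the 3′ UTR of a coding transcript with a single exon in GENCODE M21 (GRCm38, which is mm10), 5′ to 3′ on the transcript strand, with the 16-base stem-loop in capitals.
Hist1h1c (chr13:23739505-23739534, plus strand): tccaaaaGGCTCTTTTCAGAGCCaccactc
Hist3h2a (chr11:58955165-58955194, plus strand): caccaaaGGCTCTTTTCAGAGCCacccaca
Hist3h2ba (chr11:58949342-58949371, plus strand): acccaaaGGCTCTTTTCAGAGCCaccttcc
Hist1h4i (chr13:22040959-22040988, minus strand): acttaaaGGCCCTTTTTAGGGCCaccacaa
Hist2h4 (chr3:96262932-96262961, minus strand): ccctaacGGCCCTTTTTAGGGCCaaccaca
Hist1h1t (chr13:23696518-23696547, plus strand): acccaaaGGCTCTTTTAAGAGCCacttaca

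Such a stem-loop was present in 40 of the 59 members that have a coding transcript in the annotation, against 0.136% of 58797 coding transcripts of all genes. Members were counted as genes, by any of their transcripts, whereas the share over all genes counts single transcripts, those of the members included. Most of the other members have an annotated 3′ UTR of only 0 to 2 bases, among them Hist1h2aa and Hist1h2ba. There the search could not find a stem-loop, so its absence is not shown. The most common form, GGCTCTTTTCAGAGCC, was carried by 20 members, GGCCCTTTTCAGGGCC by 7 and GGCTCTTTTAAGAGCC by 6. In the 6 transcripts shown the annotated end lies well beyond the stem-loop, by 840 bases in Hist1h1c, 1643 in Hist3h2a, 169 in Hist3h2ba, 330 in Hist1h4i, 1257 in Hist2h4 and 185 in Hist1h1t. Each of the 6 also has a poly-A signal (AATAAA, the canonical hexamer, or its common variant ATTAAA, on the transcript strand) within its last 40 bases, as do 47.8% of all coding transcripts. No stem-loop was found in the annotated 3′ UTR of Hist2h2be (2192 bases), Hist1h2bc (742 bases) or Hist1h1a (48 bases). The Hist1h2bc transcript has 2 exons, so only its spliced sequence was searched. In other members the stem-loop began 21 (Hist2h2ac) to 54 (Hist4h4) bases after the stop codon, so 48 bases may end before it. For Hist1h2bc and Hist1h1a the absence of a stem-loop from the gene is thus not shown.

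Reads on the histone cluster genes were few and came mostly from 4 of them. The 63 genes took 0.00365% to 0.00748% of the counts of a library, 1658 to 3157 reads. Hist1h1c (linker histone H1.2) gave 27.2% of these reads, Hist2h2be (H2B) 25.9%, Hist3h2a (H2A) 14.4% and Hist1h2bc (H2B) 12.6%, or 80.2% in sum. Within single libraries that sum was 68.8% to 87.9%. In 33 members no library had more than 10 reads, in 17 the median was 1 read or fewer, and 24 members were detected in every library. After the filter on low counts 21 members were tested, 19 of the replication type and the testis variants Hist1h2aa and Hist1h2ba. The remaining 42 are described by their counts.

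Levels can be compared between genes only per length of gene model, for which the authors' normalized signal per kb was used. By this measure Hist1h1c (403 ± 153, SD, n = 21) and Hist1h2bc (393 ± 153) stood highest and did not differ beyond their spread. The annotated transcript of Hist1h2bc is longer (1156 bases) than the length the authors used (736 bases), and at the longer length its level is 250 ± 97.4, within its spread of the next gene. Hist2h2be followed at 224 ± 34.3, then Hist3h2a at 153.5 ± 37.1, Hist1h4i (an H4 gene) at 96.3 ± 18.1 and Hist1h1a (linker histone H1.1) at 78.1 ± 45.7. The neighbours from Hist1h4i downward overlapped in their spread: Hist3h2ba (H2B) at 52.0 ± 17.1, Hist1h2bj (H2B) at 42.5 ± 14.6, Hist2h3c2 (H3) at 29.7 ± 13.7 and Hist1h2bm (H2B) at 18.3 ± 9.81. The testis variant Hist1h2ba lay among them at 36.3 ± 30.0, Hist1h2aa at 16.9 ± 12.7.

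**Figure D1:**
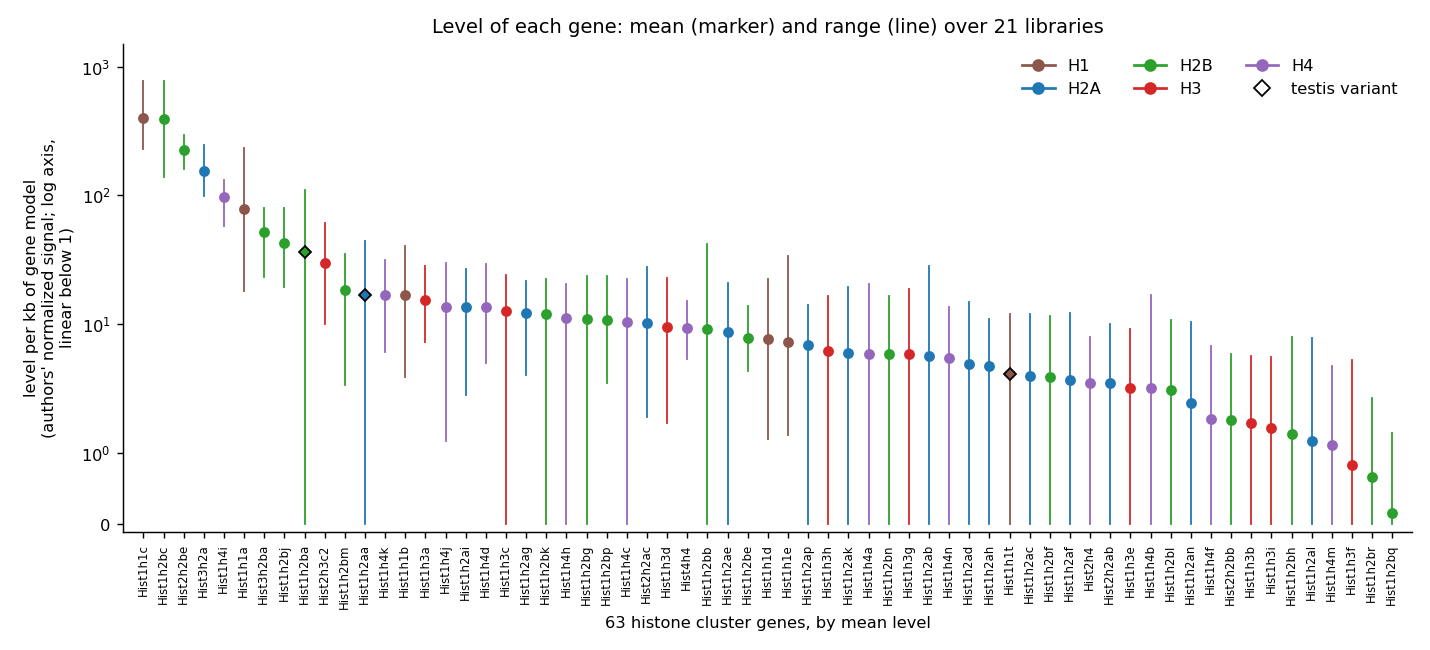
Mean level per kb of gene model (authors' normalized signal, log axis that is linear below 1) of the 63 genes in order of that mean, with lines from the lowest to the highest of 21 libraries and colours for the histone type; diamonds mark the 3 testis variants. Hist1h1c and Hist1h2bc stand highest at 403 and 393, and many genes reach 0 in at least 1 library.

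Genes for replication-independent histones were far more abundant in the same libraries. Most of these genes give polyadenylated mRNA and are expressed outside S phase as well, among them H3f3a and H3f3b (H3.3) and H2afz (H2A.Z). The 11 of them in the table summed to 62000 to 75710 signal units per kb, against 1255 to 2577 for the 60 replication-type members. Within a library the former sum was 28.1 to 49.4 times the latter. H3f3b alone stood at 32700 ± 2696 per kb. Slbp was also well expressed, at 127 to 183 CPM, and so was the S-phase clamp gene Pcna, at 61.9 to 91.2 CPM.

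The annotated transcript end went with a wide range of levels. Each feature was counted for a gene if any of its coding transcripts held it. The 13 members with both a stem-loop and a terminal poly-A signal had a median level of 10.7 per kb and gave 49.9% of the reads. Hist1h1c, Hist3h2a, Hist1h4i, Hist3h2ba and Hist2h4 were among them. Hist1h2bp, whose level is that median, was also counted there, though its stem-loop and its poly-A signal lie in different transcripts. The 27 with a stem-loop and no such signal had a median of 7.22 per kb, a highest level of 42.5 (Hist1h2bj) and 6.21% of the reads. Of the 3 with a poly-A signal only, Hist2h2be made nearly the whole of their 26.0%. The 16 with neither held 17.5%, of which Hist1h2bc gave most. Apart from Hist1h2bc and Hist1h1a, their annotated 3′ UTR is 0 to 2 bases long, too short to hold either feature. The 4 members without a coding transcript under their gene identifier in the annotation (Hist1h2al, Hist1h2bh, Hist1h2bm and Hist2h2bb) gave 0.436%. In 9 members, Hist1h2bc among them, the annotated transcript was over 200 bases longer than the length the authors used, so that where a 3′ end was modelled differs between sources.

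**Figure D2:**
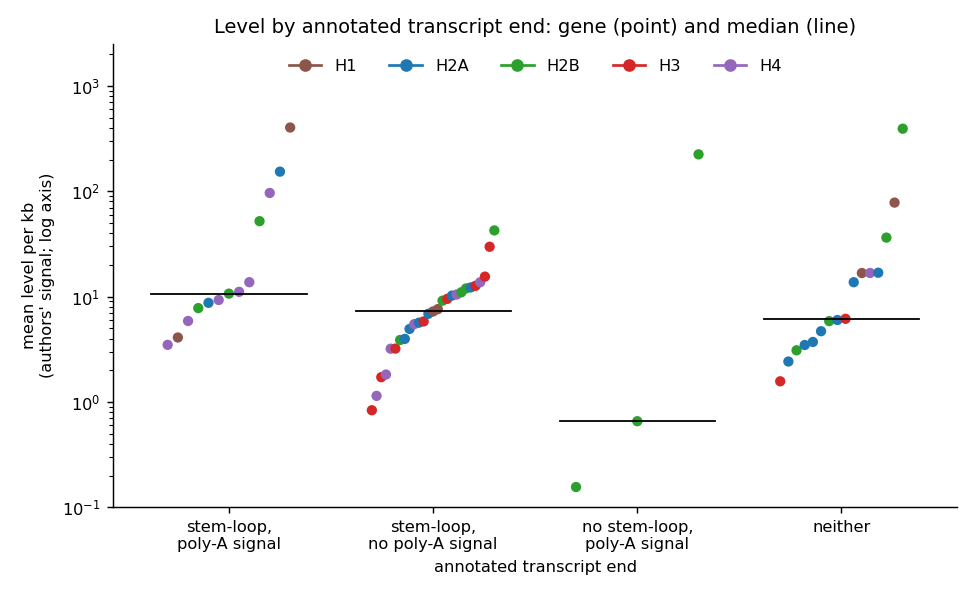
Mean level per kb of each member (points, log axis, coloured by histone type) by annotated transcript end, with the median as a line. Classes tell whether any coding transcript of the gene holds a stem-loop, and whether any holds a poly-A signal in its last 40 bases. The medians are 10.7, 7.22, 0.656 and 6.08 from left to right. Levels in each class span more than the distance between these medians. Most members with neither feature have an annotated 3′ UTR too short to hold one.

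Members share much of their sequence, which limits how well reads can be assigned. A median of 49.5% of a member's 50-base windows also occurred in a transcript of another gene, and the share was over 50% in 28 of 59 members and over 90% in 7. It was 0% in Hist2h2be, 1.01% in Hist2h4, 8.54% in Hist1h1c, 22.1% in Hist3h2ba, 30.6% in Hist1h2bc and 31.5% in Hist3h2a. Hist1h2bj (59.4%) and Hist2h3c2 (63.5%) are thus the least certain of the abundant members that have a coding transcript in the annotation. Hist1h2bm has none there, so its share was not measured. The sources used here do not say how reads with several matches were counted. Hist3h2a also overlaps Trim17, and strand was not kept, so reads of that pair cannot be told apart.

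Summed by type, the replication-type genes were at similar levels in both genotypes. H1 genes summed to 16.4 ± 6.78 CPM in WT (n = 12) and 15.7 ± 2.38 CPM in KO (n = 9), and H2A genes to 8.40 ± 2.26 and 8.59 ± 1.38 CPM. H2B genes summed to 21.8 ± 5.45 and 23.8 ± 2.14 CPM, H3 genes to 1.47 ± 0.399 and 1.27 ± 0.235 CPM, and H4 genes to 3.29 ± 0.487 and 3.18 ± 0.475 CPM. Each of these 5 differences was smaller than the spread between libraries.

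In absolute CPM, values among WT animals ranged most widely in Hist1h1c and Hist1h2bc. In the WT vehicle group T66 had 11.7 CPM of Hist1h1c, T71 9.82, T79 21.98 and T81 27.6. With BPA, WT animal T60 had 11.9 CPM, T75 9.63, T61 11.2 and T74 8.72, and with stigmasterol T78 had 18.03 CPM, T98 8.14, T118 11.8 and T119 27.6. KO animals stayed between 10.0 and 17.2 CPM, inside the WT range. Hist1h2bc was likewise highest in T81 (12.1 CPM) and T119 (13.1 CPM), and the other WT libraries had 2.36 to 7.36 CPM. KO libraries had 5.90 to 9.20 CPM. The same 2 WT libraries were at 20.04 and 31.1 CPM for Sycp3, a protein of the synaptonemal complex that marks spermatocytes, against 26.3 to 128 CPM in the other WT libraries. T81 was also 1 of 3 WT libraries with over 10 CPM of the epididymal gene Cdh16 (17.6 CPM), and the part of this in its values was not tested.

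**Figure D3:**
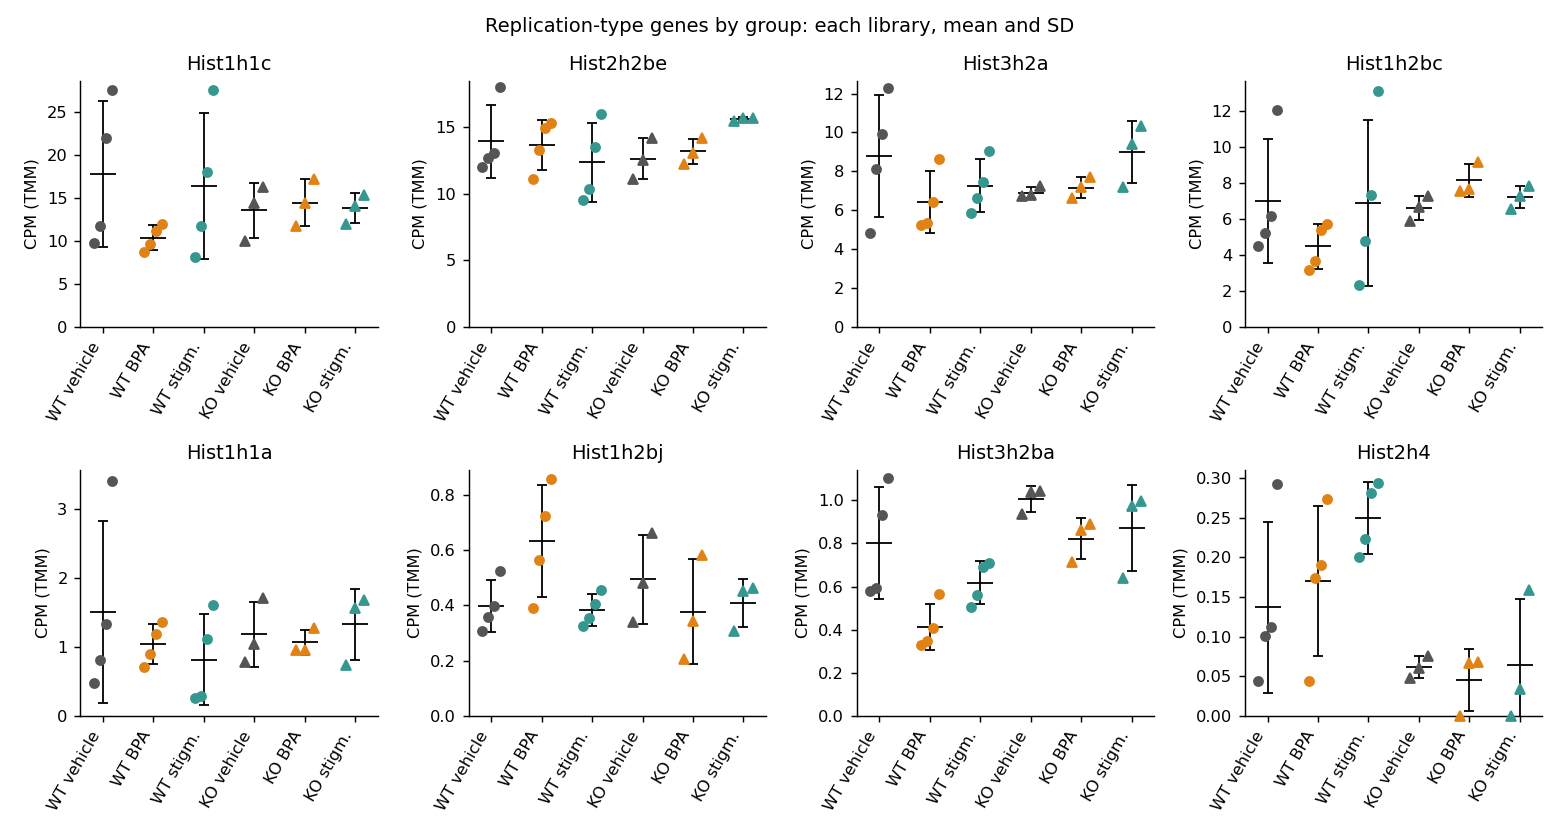
CPM (TMM-normalized, linear axes from 0) of 8 replication-type genes by group, with each library as a point (circles WT, triangles KO) and the mean with its SD as bars. Hist3h2ba is higher and Hist2h4 lower in KO than in most WT libraries, and 2 WT libraries stand above the rest for Hist1h1c and Hist1h2bc.

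Averaged over the 3 treatments, 2 members differed between KO and WT. The H2B gene Hist3h2ba was higher and the H4 gene Hist2h4 was lower, out of 21 tested (edgeR's quasi-likelihood test, Benjamini-Hochberg adjusted p under 0.05 over 20254 genes). Of all tested genes 13.9% were called in this comparison, 6.85% higher and 7.07% lower, so a count of 2 among 21 is no larger share than the background. The median log2 fold change of the 21 was 0.05, beside 0.01 over all genes, with 13 of 21 above 0 (53.3% of all genes) and 5 at an unadjusted p below 0.05 (23.8%, beside 27.8% of all genes).

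Hist3h2ba lies in the small Hist3 cluster beside Hist3h2a. Among WT animals, T66 had 0.592 CPM, T71 1.10, T79 0.581 and T81 0.932 with vehicle, T60 0.567, T75 0.405, T61 0.347 and T74 0.329 with BPA, and T78 0.506, T98 0.692, T118 0.709 and T119 0.559 with stigmasterol. Among KO animals, T1 had 1.04 CPM, T90 0.934 and T110 1.04 with vehicle, T25 0.891, T83 0.715 and T117 0.861 with BPA, and T10 0.998, T15 0.640 and T93 0.974 with stigmasterol. The 9 KO values all lay above the WT median of 0.574 CPM. The genotypes overlapped, with WT animal T71 the highest of all and WT animals T81, T98 and T118 inside the KO range. The fold change was 0.60 ± 0.144 (log2, SE) with an adjusted p of 0.00971. Its neighbour Hist3h2a, which is more abundant, had 0.04 ± 0.138 (adjusted p = 0.880).

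Hist2h4 was close to the limit of detection. Among WT animals, T66 had 2 reads, T71 4, T79 5 and T81 11 with vehicle, T60 14, T75 8, T61 8 and T74 2 with BPA, and T78 11, T98 13, T118 11 and T119 10 with stigmasterol. Among KO animals, T1, T90 and T110 had 3 reads each with vehicle, T25 3, T83 3 and T117 0 with BPA, and T10 7, T15 0 and T93 2 with stigmasterol. In WT 10 of 12 libraries had more than 3 reads, in KO 1 of 9, and the ranges overlapped. The filter on low counts used a minimum count of 10, which only WT libraries reached, the highest KO library (T10) having 7 reads. Hist2h4 was thus among the tested genes because of its WT level, the genotype in which it was then called higher. The call is to be read with that selection in mind. The total was 99 reads in WT and 24 in KO, or 0.183 and 0.0568 CPM over the pooled libraries. The fitted log2 fold change was -1.64 ± 0.455 (adjusted p = 0.0230). Hist4h4, another H4 gene, came next by p, with -0.41 ± 0.161 and an adjusted p of 0.102, and Hist1h4i had 0.08 on the same scale.

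Both calls were kept in each of 21 fits that left out 1 animal, with log2 fold changes of 0.56 to 0.67 for Hist3h2ba and -2.16 to -1.43 for Hist2h4. Epididymal epithelium markers moved with genotype in these libraries: 6 of 7 were called higher in KO, with none at 0 throughout, and their sum was 51.7 to 132 CPM among WT and 102 to 464 CPM among KO animals. Sertoli cell markers went the other way, with 6 of 10 called lower and sums of 4381 to 7258 CPM among WT and 3930 to 4952 CPM among KO animals. Without the 9 libraries with 10 CPM or more of the epididymal gene Cdh16, which left 9 WT and 3 KO, the log2 fold changes were 0.57 for Hist3h2ba (adjusted p = 0.369) and -2.66 for Hist2h4 (adjusted p = 0.159), so neither was called there. In whole tissue, fewer cells of a type and less RNA per cell cannot be told apart. Within 5 Mb of Hist2h4, 29 of 147 other tested genes were called (19.7%), and within 1 Mb 9 of 68 (13.2%). Within 5 Mb of Hist3h2ba 8 of 174 were called (4.598%), and within 1 Mb 3 of 61 (4.918%). Over all tested genes the share was 13.9%.

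No member was called within a single treatment by edgeR, DESeq2 or limma-voom when KO was set against WT. In vehicle (2.92% of all genes called) 1 of 21 had an unadjusted p below 0.05, beside 20.9% of all genes, and the smallest p belonged to Hist4h4 (-0.62 ± 0.278, adjusted p = 0.215), Hist3h2a (-0.34 ± 0.241, 0.427) and Hist2h4 (-1.12 ± 0.793, 0.434). In BPA (0.859% called) 4 of 21 did, beside 8.16% of all genes, led by Hist3h2ba (0.99 ± 0.256, adjusted p = 0.0943), Hist2h4 (-1.83 ± 0.822, 0.561) and Hist1h2bj (-0.74 ± 0.338, 0.586). The values of the 2 groups did not overlap for 3 members there, Hist3h2ba, Hist1h2bc and Hist1h4i, all higher in KO, as for 5.12% of all genes in that direction. In stigmasterol (7.21% called) 2 of 21 did, beside 21.3% of all genes, led by Hist2h4 (-1.95 ± 0.740, adjusted p = 0.122), Hist1h2aa (2.04 ± 0.786, 0.128) and Hist2h2be (0.34 ± 0.167, 0.250). Hist2h4 passed the filter on low counts through WT libraries and Hist1h2aa mainly through KO libraries, in each case the genotype in which it was higher. The groups did not overlap for Hist2h4 and Hist4h4, both lower in KO, as for 8.6% of all genes in that direction. Without KO stigmasterol animal T10, the KO animal with the most Hist2h4 reads, Hist2h4 was called there (-3.53, adjusted p = 0.0425). The 7.21% of all genes belongs to the fit that includes T10 and is no background for that call. Without the libraries of high Cdh16 the only KO stigmasterol animal kept was T15, with 0 reads, and the fitted -6.54 (adjusted p = 0.183) is no bound.

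**Figure D4:**
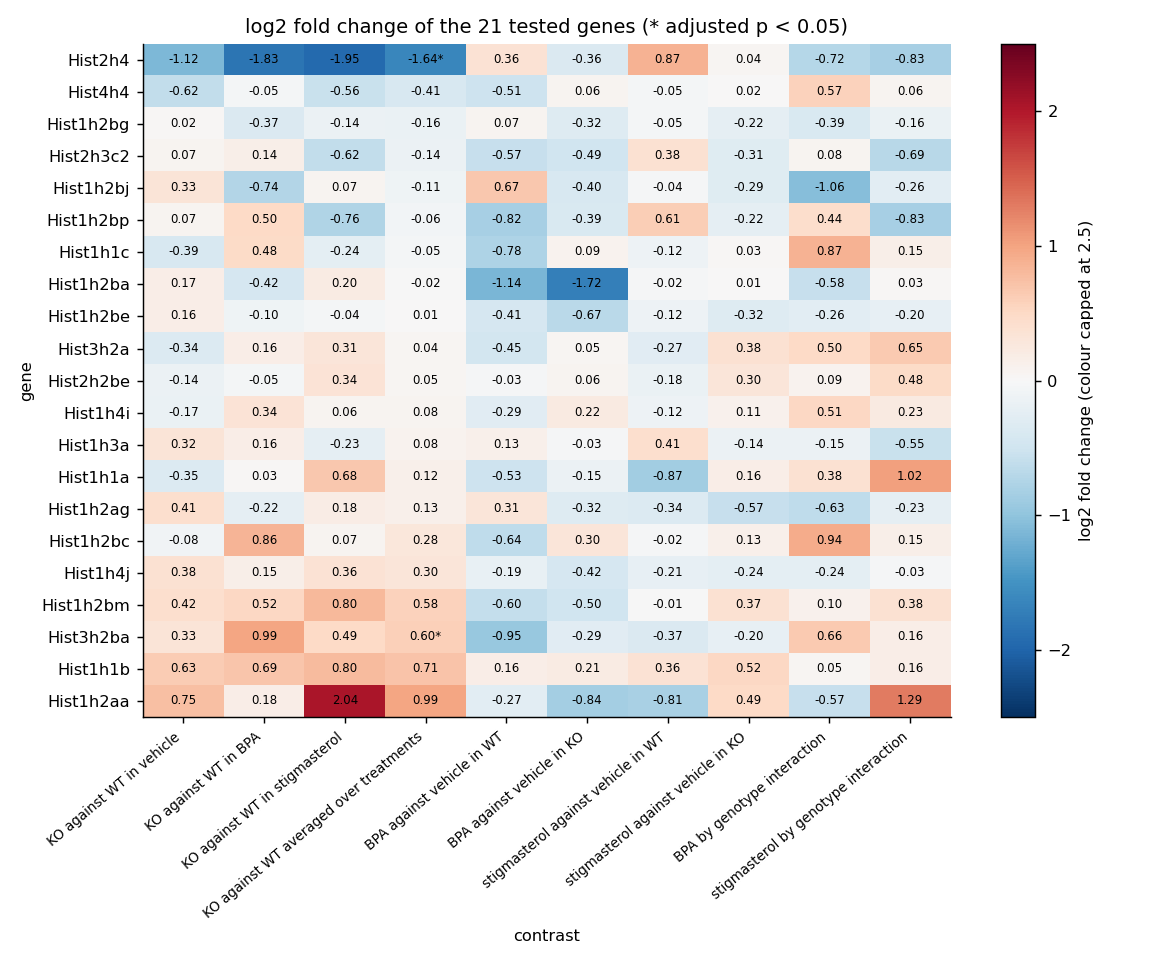
log2 fold change (colour and number) of the 21 tested genes, in rows ordered by the genotype effect averaged over treatments, for the 10 comparisons in columns; an asterisk marks an adjusted p under 0.05. Only Hist3h2ba (0.60) and Hist2h4 (-1.64) carry one, both in the averaged genotype comparison.

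BPA was compared with vehicle within each genotype. In WT no gene of the whole table was called by edgeR (0% of 20254), and 3 of 21 members had an unadjusted p below 0.05 (14.3%, beside 18.8% of all genes). The members' median log2 fold change was -0.41, with 6 of 21 above 0, beside 0.01 and 52.2% over all genes. Hist3h2ba had -0.95 ± 0.241 (adjusted p = 0.0736), and its WT BPA values, 0.329 to 0.567 CPM, lay below those of WT vehicle, 0.581 to 1.10 CPM, as the groups did for 4.41% of all genes in that direction. Hist1h1c had -0.78 ± 0.328 (adjusted p = 0.211) and Hist1h2bj 0.67 ± 0.309 (0.251), with overlapping groups. DESeq2 called 1 member, Hist3h2ba (-0.94, adjusted p = 0.0274), and limma-voom 0. edgeR called Hist3h2ba without WT BPA animal T60 (-1.14, adjusted p = 0.0417) and, together with Hist3h2a, without WT vehicle animal T79 (-1.07, 0.0217). The 0% of all genes above holds only for edgeR's fit of all libraries. The calls under other settings thus stand without a matching share of all genes. This comparison and that of KO with WT in BPA share the 4 WT BPA animals, so their Hist3h2ba values are not independent. Liver markers varied within the WT BPA group, with 6 genes summing to 8.41 to 990 CPM; their part in these values was not tested.

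In KO, BPA gave 0 called members of 21 in edgeR (0.0148% of all genes called), DESeq2 and limma-voom, and 0 with an unadjusted p below 0.05, beside 4.31% of all genes. The smallest p belonged to Hist1h2ba (-1.72 ± 1.00, adjusted p = 0.897), Hist1h2be (-0.67 ± 0.435, 0.897) and Hist3h2ba (-0.29 ± 0.263, 0.897). The median was -0.32, with 7 of 21 above 0. The groups did not overlap for Hist3h2ba, lower with BPA (as for 5.35% of all genes in that direction), and Hist1h2bc, higher with BPA (5.79%). The difference between genotypes in the response to BPA was tested as an interaction, in which edgeR called 0.0148% of all genes. Each of the 3 tools called 0 members. In edgeR 1 of 21 had an unadjusted p below 0.05, beside 8.83% of all genes. Hist1h2bj had the smallest p (-1.06 ± 0.475, adjusted p = 0.554), followed by Hist3h2ba (0.66 ± 0.356, 0.591) and Hist1h1c (0.87 ± 0.498, 0.609).

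Stigmasterol likewise gave 0 called members in WT and in KO by each of the 3 tools. Of all genes edgeR called 0.00494% in WT and 0% in KO. In edgeR 0 members had an unadjusted p below 0.05 in either, beside 8.26% and 3.85% of all genes. The medians were -0.05 and 0.02. In WT the smallest p belonged to Hist3h2ba (-0.37 ± 0.235, adjusted p = 0.722), Hist1h1a (-0.87 ± 0.556, 0.725) and Hist2h4 (0.87 ± 0.616, 0.763). Without WT vehicle animal T71 the Hist1h1a value was -0.0918 (adjusted p = 0.979). That of Hist2h4 was 1.51 once T81 was left out (adjusted p = 0.579). In KO they were Hist2h2be (0.30 ± 0.179), Hist3h2a (0.38 ± 0.256) and Hist1h2ag (-0.57 ± 0.521), each with an adjusted p of 1. The 3 KO stigmasterol animals were close together for Hist2h2be, at 15.6, 15.6 and 15.4 CPM, above the KO vehicle range of 11.1 to 14.2 CPM, as the groups were for 4.63% of all genes in that direction. In the interaction with genotype (0.00987% called) 0 members were called and 0 had an unadjusted p below 0.05, beside 9.16% of all genes. Hist2h2be (0.48 ± 0.237, adjusted p = 0.568), Hist3h2a (0.65 ± 0.339, 0.593) and Hist1h1a (1.02 ± 0.839, 0.754, and 0.25 without T71) led there.

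The testis variants were low and varied several-fold between animals of a group. For Hist1h2ba in WT, T66 had 0.724 CPM, T71 0.476, T79 0.179 and T81 0.160 with vehicle, T60 0.371, T75 0.0953, T61 0.0651 and T74 0.153 with BPA, and T78 0.0405, T98 0.974, T118 0.400 and T119 0.0883 with stigmasterol. In KO, T1 had 0.702 CPM, T90 0.387 and T110 0.203 with vehicle, T25 0.274, T83 0.112 and T117 0 with BPA, and T10 0.635, T15 0.507 and T93 0.188 with stigmasterol. Each treatment held animals several-fold apart, and the WT and KO ranges overlapped within each. The averaged genotype effect was -0.02 ± 0.479 (adjusted p = 0.987), a sign that turned in some of the other fits.

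Hist1h2aa was lower still, with 0 to 0.276 CPM among WT animals and up to 0.397 CPM among KO animals. The 4 WT stigmasterol animals had 1, 5, 8 and 0 reads and the 3 KO stigmasterol animals 11, 18 and 17, groups that did not overlap, as for 8.43% of all genes in that direction. The filter's minimum count of 10 was reached in WT by T71 (11 reads) only, and in KO by T90 (21 reads), T10, T15 and T93. Hist1h2aa was thus tested mainly because of its KO level, so that share is no background for it. Its genotype values are to be read with that selection in mind. The averaged genotype effect was 0.99 ± 0.467 with an adjusted p of 0.175, so it was not called. Hist1h1t, the variant of later spermatocytes, had 0 to 9 reads per library and was not tested. Its group means ran from 0.0467 CPM in KO BPA to 0.124 ± 0.0853 CPM in KO stigmasterol, not far from what 3 reads are worth.

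**Figure D5:**
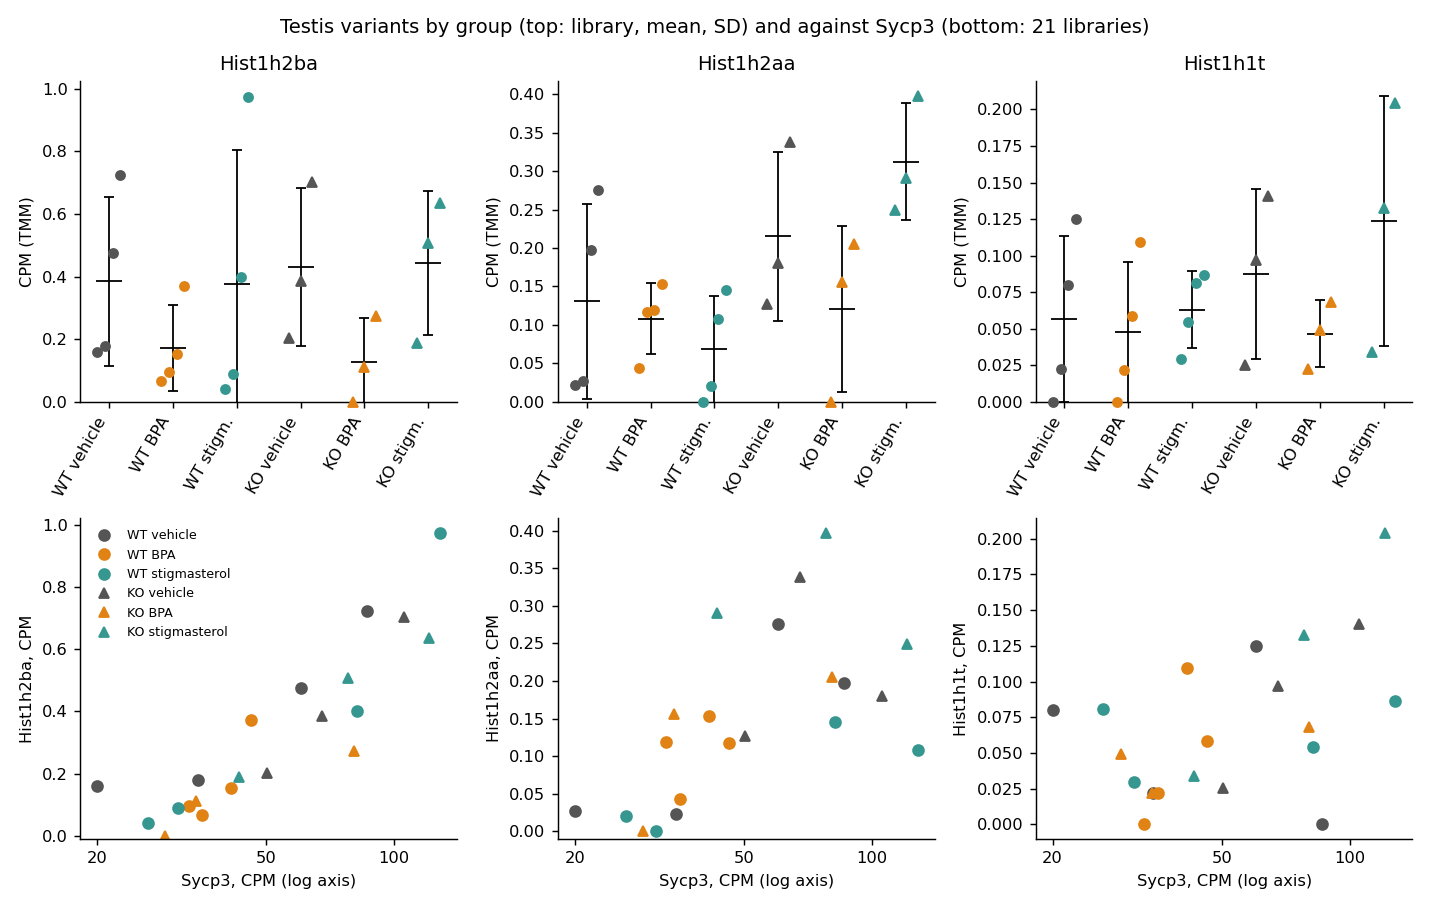
Testis variants in CPM (TMM-normalized): the top row gives each library by group with the mean and SD, the bottom row plots the 21 libraries against Sycp3 (log axis), circles for WT and triangles for KO. Hist1h2ba rises along Sycp3 (r = 0.861 on the log2 scale), Hist1h2aa less closely (0.685), and Hist1h1t stays near 0.

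Levels of the testis variants were set beside a spermatocyte marker, Sycp3, and a marker of spermatogonia, Uchl1, over the 21 libraries, 6 relations in all. Hist1h2ba went with Sycp3 (Pearson r = 0.861, permutation p = 2e-05, adjusted 0.00012; Spearman rho = 0.917, p = 1e-05, the smallest the permutations can give, adjusted 6e-05). The relation was as close in deviations from the 6 group means (r = 0.917) and without the 2 libraries farthest from the median of Sycp3 (r = 0.825, n = 19). Hist1h2aa also went with Sycp3 (r = 0.685, permutation p = 0.00071, adjusted 0.00213; rho = 0.642, p = 0.00197, adjusted 0.00591), and with r = 0.691 within groups and 0.749 without the 2 farthest libraries. Its relation with Uchl1 (r = 0.575, permutation p = 0.00589, adjusted 0.0118; rho = 0.443, p = 0.0455, adjusted 0.0910) rested on WT vehicle animal T81 and WT stigmasterol animal T119, without which r was 0.329 (permutation p = 0.169). Hist1h1t with Sycp3 gave r = 0.428 (permutation p = 0.0533, adjusted 0.0800; rho = 0.416, p = 0.0609), 0.283 without the 2 farthest libraries. The relations of Hist1h2ba (r = 0.212, permutation p = 0.357; rho = 0.104, p = 0.653) and Hist1h1t (r = 0.271, permutation p = 0.237; rho = 0.307, p = 0.172) with Uchl1 did not pass the threshold.

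Hist1h2aa and Hist1h2ba are neighbours that point away from each other, and the stretch between them is shown since both went with Sycp3. It runs from one TATA match to the other (chr13:23934245-23934410, plus strand of GRCm38.p6, RefSeq promoter of Hist1h2aa, transcribed to the right; Hist1h2ba is transcribed to the left). Capitals mark matches on either strand to the TATA box (TATAAA), to the motif of the factor NF-Y (CCAAT) and to the octamer of the Oct factors (ATTTGCAT). No match overlaps another here.
Hist1h2aa and Hist1h2ba: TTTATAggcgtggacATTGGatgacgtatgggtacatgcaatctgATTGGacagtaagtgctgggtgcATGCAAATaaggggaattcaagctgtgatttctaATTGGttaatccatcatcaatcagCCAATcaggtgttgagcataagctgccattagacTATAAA

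The 166 bases hold 1 TATA match facing each gene, 4 CCAAT matches and 1 octamer. The same motifs were common among the members as a whole. Of 56 members matched by symbol or synonym to RefSeq's promoters (250 bases before to 50 after the start, GRCm38.p6), 34 held TATAAA on either strand (60.7%), 47 held CCAAT (83.9%) and 14 held the octamer (25%). Among 32851 promoters of all genes the shares were 13.6%, 37.4% and 1.74%. Here too members were counted as genes, by any of their promoters, and all genes by single promoters, those of the members included.

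The other 19 tested members were also set beside Sycp3, a choice made after values had been seen, with p-values adjusted over the 21 members. Hist1h1a had r = 0.700 (permutation p = 0.00021, adjusted 0.00220; rho = 0.783, p = 3e-05, adjusted 0.000315), 0.843 in deviations from group means and 0.689 without the 2 farthest libraries. Its lowest values, 0.265, 0.284 and 0.479 CPM, were in WT stigmasterol animals T119 and T78 and WT vehicle animal T81. Hist1h1c went the other way, with r = -0.546 (permutation p = 0.0109, adjusted 0.0455; rho = -0.503, p = 0.0224, adjusted 0.0782), -0.743 within groups and -0.474 without the 2 farthest. Hist1h2bm (r = 0.613, permutation p = 0.00345, adjusted 0.0181; rho = 0.527, p = 0.0153, adjusted 0.0641) and Hist2h3c2 (r = 0.533, permutation p = 0.0130, adjusted 0.0455; rho = 0.553, p = 0.0102, adjusted 0.0537) passed by Pearson's r and not by Spearman's rho. The linker histone genes Hist1h1a and Hist1h1c thus had correlations of opposite sign with this marker, and for Hist1h1c the rank correlation missed the threshold.

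Genes that act on histone mRNA or on histones were taken from lists of known function. In the averaged genotype comparison 13.9% of all tested genes were called, so a few calls per list do not set these lists apart. Of 17 genes for histone pre-mRNA processing and decay, 1 was called higher and 2 lower in the averaged genotype comparison: Upf1, a helicase of mRNA decay (0.27 ± 0.0559, adjusted p = 0.00347), Sympk, the scaffold of the cleavage complex (-0.13 ± 0.0401, 0.0343), and Cpsf2 (-0.10 ± 0.0323, 0.0432). Slbp itself was not called (0.06 ± 0.0624, adjusted p = 0.584), nor was Npat, the coactivator of histone transcription (0.13 ± 0.0706, 0.254). Of 15 chaperone and deposition genes Daxx, which deposits H3.3, was called lower (-0.18 ± 0.0412, adjusted p = 0.00783). Of 11 replication-independent histone genes H2afz was called lower (-0.16 ± 0.0411, adjusted p = 0.0148), also within vehicle (-0.30 ± 0.0713, 0.0300), where 2.92% of all genes were called. Of 23 S phase and replication genes Pcna was called higher (0.26 ± 0.0545, adjusted p = 0.00378), and 22 of 23 had a fold change above 0, with a median of 0.13 beside 0.01 over all genes. The replication-type histone genes, with 12 of 19 tested members above 0 and a median of 0.05, lay nearer to all genes.

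WT vehicle animal T71 stood apart in the less abundant members. The 56 replication-type genes other than the 4 highest summed to 15.5 CPM there and to 7.65 to 11.5 CPM in the other 20 libraries, and Hist1h1a alone was 3.41 CPM there against 0.265 to 1.71 CPM elsewhere. RNAs that are made without a poly-A tail, 7 genes including Rn7sk, summed to 12.8 CPM in that library and to 2.41 to 5.52 CPM in the others. Over 21 libraries the 2 sums had r = 0.704 (permutation p = 0.00399, adjusted over 2 relations 0.00798; rho = 0.347, p = 0.122), also a relation examined after values had been seen. Without the 2 libraries farthest from the median r was 0.216, so it rested on those libraries. For the sum of the 4 highest members r was -0.133 (permutation p = 0.536; rho = -0.0909, p = 0.695).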

How the data were processed

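Whole-testis RNA of 21 mice was poly-A selected and sequenced with an unstranded kit, per the labels' protocols. The authors deposited whole-number read counts per Ensembl gene, a normalized signal (each count divided by 1 size factor per library) and that signal per kb, with log2 fold changes and p-values that were not used here, per the file headers. Bowtie, Bowtie2 2.1.0, TopHat2 2.0.10, CASAVA 1.8.2 and the mm10 build appear in the submitters' processing notes, and the counter and annotation release were not given in the sources used here. From the counts, 1 model was fitted to all libraries (edgeR 4.0.16 under R 4.3.3, TMM, filterByExpr with minimum count 10 and total 15, quasi-likelihood F test, 1 mean per group, 10 contrasts, Benjamini-Hochberg over 20254 genes). The fit was checked on simulated counts. Changes were planted there only in genes with more reads than Hist2h4, with the same spread for every gene, so calls at low counts were not checked. The biological coefficient of variation was 19.2%. DESeq2 1.42.0, limma-voom (limma 3.58.1), no filter, the groups compared alone, left-out animals and left-out Cdh16 libraries were alternatives. Correlations used log2 CPM (prior count 2) and two-sided tests of 100000 permutations (Python 3.11.15). Sequences came from GENCODE M21 and RefSeq. Named were the testis variants, the 10 replication-type members highest per kb, called members, and otherwise the 3 with the smallest p per contrast, with up to 3 called genes of each list per contrast. Members and lists were chosen with earlier results of these data known. Animals are separate, but litters are unknown, so p-values measure the spread between animals; replicate pairs differed beyond counting noise (chi-square over degrees of freedom 10.9 to 93.1 in 27 pairs).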

Additional observations from a re-analysis of the deposited data

Results flagged for a closer look

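Values of named members and of sums by type were examined for single animals far from the rest of their group, which is possible only in the WT groups of 4. Of 75 such groups of values 2 held one, and chance alone flags about 1 in 20. In WT vehicle animal T81 the summed H2B genes stood at 32.7 CPM, against 19.4 to 21.4 CPM in the other 3 animals of its group. In WT vehicle animal T71 the summed replication-type genes other than the 4 highest stood at 15.5 CPM, against 8.77 to 9.37 CPM in the other 3. No interaction of treatment with genotype was called for a member.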

How the results depend on the processing

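Counts of called members moved by more than 1.5 times in few settings. In the averaged genotype comparison the count of 2 fell to 0 once the 9 libraries of high Cdh16 (10 CPM or above) were left out and was 2 in each left-out-animal fit (lowest 2, highest 2). For BPA against vehicle in WT the count of 0 became 1 with DESeq2 and ranged from 0 to 2 with 1 animal left out. For KO against WT in stigmasterol it ranged from 0 to 1 with 1 animal left out. Shares of all genes called under these settings are not given here. The log2 fold change of Hist1h2ba in the averaged comparison, -0.02, turned to 0.0332 with limma-voom and 0.48 without the Cdh16 libraries, and ranged from -0.40 to 0.33 with 1 animal left out. That of Hist1h2be for BPA in KO turned from -0.67 to 0.0853 without the Cdh16 libraries. Of the log2 fold changes of named members, 20 values under other settings lay over 1.5-fold from the reported one. Without the Cdh16 libraries Hist2h4 moved in KO against WT to -2.66 averaged, -0.66 in BPA and -6.54 in stigmasterol, and to 1.51 for stigmasterol in WT. Under the same setting Hist1h2bj moved to -1.64 for KO against WT in BPA and -2.37 in the BPA interaction, Hist1h2ba to -0.49 for BPA in KO, Hist1h2ag to -1.73 for stigmasterol in KO and Hist1h1a to 1.84 in the stigmasterol interaction. With limma-voom Hist2h4 moved to -2.57 for KO against WT in stigmasterol and Hist1h2ba to -2.38 for BPA in KO. Without WT vehicle T71 Hist1h1a moved to -0.0918 for stigmasterol in WT and 0.25 in the interaction, and without T81 Hist2h4 moved to -0.49 for KO against WT in vehicle and 1.51 for stigmasterol in WT. Hist1h2aa moved to 2.7 for KO against WT in stigmasterol without WT T118, Hist1h2ba to -2.85 for BPA in KO without T25, Hist2h4 to -3.53 for KO against WT in stigmasterol without T10, and Hist1h2ag to -1.61 for stigmasterol in KO without T93. The correlation of Hist1h2aa with Uchl1 fell to 0.329 without the 2 libraries farthest from the median. The causes were not tested. Ratios of KO to WT by histone type differed between TMM and the authors' normalized signal by less than the spread between libraries. No paired analysis was possible because each animal number occurs in 1 group only. Depth limits the 42 untested members and Hist2h4, whose KO libraries mostly had 3 reads or fewer. Shared sequence and unknown treatment of multiply matching reads limit single members of the larger families.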
